A study of Mus musculus with 4 samples.

Results

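The cytosolic ribosomal protein genes, taken as the protein-coding rows of the count table whose symbols start with Rpl or Rps, made up 1.73% of the gene counts of inflammatory (M1) mouse macrophages and 3.74% of those of alternatively activated (M2) macrophages. Of 84 members that could be tested, 76 were higher in M2, 3 were lower and 5 were not called, where 39.7% of all tested genes were higher and 37.5% lower. The genes did not move by equal amounts. Rpl10a, whose protein forms the L1 stalk near the exit site for transfer RNA, was 3.13-fold higher in M2, and Rps24, a protein of the small subunit, was 1.46-fold lower there. These calls and folds use a scaling of the libraries that is described below. Scaled to total counts alone, as the shares are, Rps24 stood at -0.10 log2 units and was not called. Members were chosen by symbol alone, through the Ensembl gene ID: 92 protein-coding rows matched, 6 that are named as pseudogenes were left out, and 86 remained of the 49315 rows of the table. They comprise 52 genes of the large subunit (Rpl symbols) and 34 with Rps symbols, lie on 19 chromosomes with 4 on X, and include Rpl22l1, Rpl39l, Rps27l and other paralogs. Fau and Rack1 also encode ribosomal proteins but carry other symbols, so they are described apart. Rps19bp1, which encodes a binding partner of Rps19, and Rpl7l1, which acts in ribosome assembly, match by symbol although their products are not parts of the mature ribosome.

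A ribosome has a small subunit, which reads the messenger RNA, and a large subunit, which forms peptide bonds. Each ribosome holds a single copy of nearly every ribosomal protein, the stalk proteins Rplp1 and Rplp2 being the exceptions, so cells make these proteins in near-equal numbers. Their messenger RNAs start with a C followed by a run of pyrimidines, the 5′ terminal oligopyrimidine (TOP) tract, through which the growth-regulating kinase complex mTORC1 and the RNA-binding protein Larp1 control translation. RNA sequencing measures the messenger RNA and not its translation.

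The study compared polarised bone marrow-derived macrophages, cells grown from mouse marrow, here for 7 days with L-cell supernatant as the source of growth factor. All 4 libraries come from Lyz2Cre+ cells, which carry a Cre recombinase driven from the Lyz2 locus of myeloid cells. Polarisation lasted 24 hours in serum-free medium: the M1 group (n = 2) received interferon gamma at 50 ng/ml together with LPS at 100 ng/ml, and the M2 group (n = 2) received IL-13 and IL-4 at 10 ng/ml each. The series also used the EGF receptor inhibitor erlotinib, and whether it was given to the cells of these libraries is not stated. Nor do the labels give ages, the number of animals, or whether the replicates of a group are independent cultures. The p-values therefore cover only the spread among these 4 libraries, which may be technical. Without an unpolarised library, higher in M2 cannot be told apart from lower in M1.

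Libraries held 26806370 to 39506242 gene counts. Levels are CPM (counts scaled to a fixed library total) on a library size scaled with TMM factors, which ran from 0.846 to 0.866 in M1 and from 1.17 to 1.17 in M2, and fold changes are M2 over M1. A gene was called at an adjusted p under 0.05 in edgeR's quasi-likelihood test with Benjamini-Hochberg adjustment over all 14656 tested genes. The summed level of 5 M1 markers was 23732 and 25235 CPM in M1 against 36.4 and 32.7 in M2, and that of 5 M2 markers was 4.60 and 3.33 against 1423 and 1404, as the labels have it. The 8 macrophage markers summed to 8203 and 8189 CPM in M1 and 4479 and 4365 in M2, with Lyz2 itself at 25.2, 27.3, 6.51 and 6.88 CPM. They did not move together: Csf1r and Cd68 were called higher in M2 and the other 6 lower. Markers of T cells, B cells, NK cells, mast cells and basophils, and red cell precursors summed to under 3 CPM per list in every library (Ms4a2 at 0 counts), and 7 neutrophil markers to between 9.16 and 12.4, with S100a9, Ltf and Mpo called higher in M2 and S100a8 lower. The 4 fibroblast and stroma markers summed to 112 and 104 CPM in M1 and to 1032 and 1057 in M2: Col1a1, Col1a2 and Pdgfra were called higher in M2 and Dcn lower. The 4 dendritic cell markers, mainly Ccr7, summed to 455 and 476 CPM in M1 and to 4.24 and 2.99 in M2: Zbtb46 was called higher in M2 and the other 3 lower. The part of these markers in the results that follow was not tested.

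The share of a library taken by the 86 members needs no scaling factor. It was 1.62% and 1.84% in the M1 libraries and 3.67% and 3.82% in the M2 libraries. The M2 values lay above the M1 values without overlap, with means of 1.73% ± 0.155 and 3.74% ± 0.110 (SD, n = 2 each), a 2.16-fold ratio. The exact two-sided permutation test gave p = 0.333, the smallest that 2 against 2 libraries allow. In bulk libraries such as these, more ribosomal protein RNA per cell and more of the cells that hold much of it cannot be told apart. A share also depends on how much of a library the other genes take. Scaled to total counts, as a share is, the median of all tested genes was itself 0.48 log2 units higher in M2. How far this enters the ratio of the shares was not tested. Both subunits took part: Rpl genes held 0.924% and 1.05% of the counts in M1 and 2.14% and 2.22% in M2, and Rps genes 0.701% and 0.790% against 1.53% and 1.60%. Rpl genes accounted for 56.8% and 57.1% of the ribosomal counts in M1 and for 58.3% and 58.2% in M2. With the 50 most abundant other genes taken out of the denominator, the shares became 2.04% and 2.32% in M1 and 4.39% and 4.58% in M2.

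**Figure D1:**
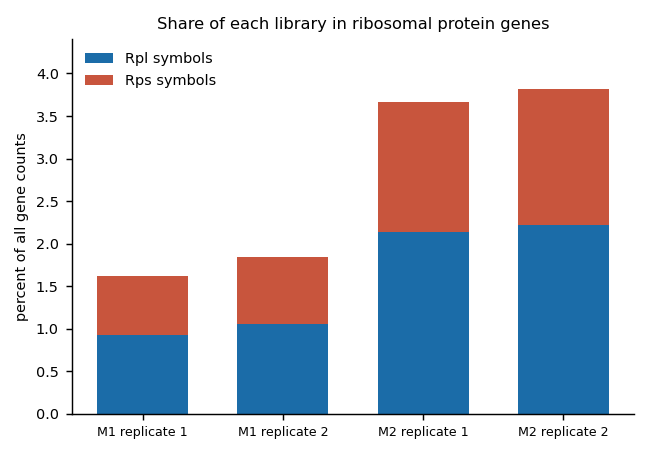
Percent of all gene counts in Rpl (blue) and Rps (red) genes, as stacked bars for each of the 4 libraries. The M1 bars reach 1.62% and 1.84% and the M2 bars 3.67% and 3.82%, with both colours larger in M2.

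On the TMM scale, 84 of the 86 members passed the filter on low counts. Of these, 76 were called higher in M2 and 3 lower, and 77.2% of all tested genes were called in either direction. The libraries of the groups did not overlap for 82 of the 84 members, against 88.5% of all tested genes. The median member rose by 0.66 log2 units, a 1.58-fold difference, with quartiles at 0.50 and 0.92 and extremes at -0.54 and 2.55; the median of all tested genes was 0.04. The 50 Rpl genes had a median of 0.63, with 46 higher and 1 lower, and the 34 Rps genes a median of 0.69, with 30 higher and 2 lower. Most members are abundant, so genes of at least 50 CPM make a closer background. At that level 74 of 80 members were called higher and 2 lower, whereas of 4058 genes 30.9% were called higher and 54.2% lower (85.2% in either direction), with a median of -0.24.

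**Figure D2:**
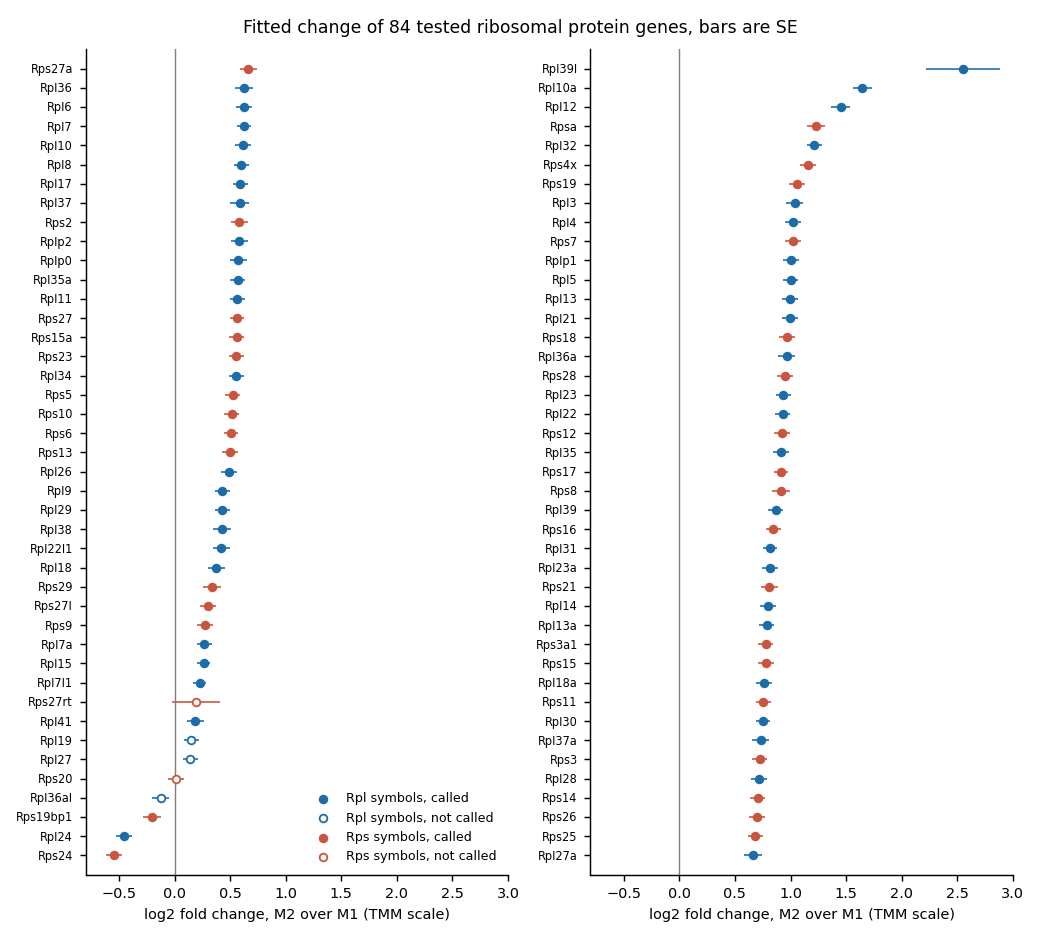
Fitted log2 fold change (M2 over M1, TMM scale) of the 84 tested members with its standard error, in order of size over the left and then the right panel; open symbols were not called. Most members lie between 0.2 and 1.1, Rps24 and Rpl24 stand at the lower end, and Rpl10a and the scarce Rpl39l at the upper end.

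Rpl10a rose most among the abundant members. Its level was 97.5 and 119 CPM in the M1 libraries and 329 and 349 in the M2 libraries, a rise of 1.65 log2 units (SE 0.09, adjusted p = 2.0e-09, edgeR's quasi-likelihood test). Every M2 library stood far above every M1 library. Rpl12, at the base of the stalk where elongation factors bind, had 171 and 210 CPM in M1 and 511 and 529 in M2 (log2 1.45, SE 0.09). Rpsa, a small-subunit protein also known as the laminin receptor, had 218 and 263 CPM in M1 against 557 and 569 in M2 (log2 1.23, SE 0.08). For these 3 genes the M1 libraries differed more from each other than the M2 libraries did, and the groups were still well apart. Rpl32, a large-subunit protein, had 177 and 195 CPM against 424 and 440 (log2 1.21). Rps4x, the X-linked small-subunit protein, had 328 and 351 against 736 and 776 (log2 1.16). The next members were Rps19, the gene most often mutated in Diamond-Blackfan anaemia (log2 1.06), Rpl3, close to the peptidyl transferase centre (1.04), and Rpl4, which lines the exit tunnel of the new peptide (1.02). All of these passed the test, and 11 of the 84 members rose by at least 1 log2 unit. Changes of that size were more common over all genes: 6003 of 14656 tested genes changed by at least 1 log2 unit in either direction.

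Rps24 went the other way. It had 910 and 948 CPM in the M1 libraries and 622 and 652 in the M2 libraries, a fall of 0.54 log2 units (log2 -0.54, SE 0.07, adjusted p = 3.4e-06, edgeR's quasi-likelihood test). In counts, which are not corrected for length, it was the largest contributor to the ribosomal total in M1, with 4.74% and 4.45%, ahead of Rplp0 at 2.88% and 2.97%. In M2 it held 1.98% and 1.99% and was not among the 5 largest, which were Rplp0, Rplp1, Rpl4, Rpl10 and Rps4x. Rps24 lies on chromosome 14, and its exons in the annotation add up to 6256 bases and share none with another gene. Rpl24, a protein of the bridge between the subunits, fell from 81.0 and 94.7 CPM to 62.7 and 65.2 (log2 -0.46, SE 0.07, adjusted p = 5.8e-05). Its groups did not overlap either. The exons of Rpl24 share 47.0% of their bases with Gm28037 on the same strand, a gene at 0 counts in all 4 libraries, so the share of Rpl24 reads that was counted is not known. Rps19bp1 had 22.7 and 25.1 CPM against 20.8 and 20.7 (log2 -0.20, SE 0.08, adjusted p = 0.033), and this call was lost in a fit without M1 replicate 2 (log2 -0.14), without either M2 library (-0.19 each), with DESeq2 (-0.23), with upper-quartile scaling (-0.019), without a filter on low counts (-0.14) and with a filter at 5 CPM (-0.16).

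The calls of these 3 genes rest on the scaling, and for Rps19bp1 the direction does too. Scaled to total counts alone, Rps24 stood at -0.10 and Rpl24 at -0.0087 log2 units, neither of them called, and Rps19bp1 at 0.24, called higher; the median of all tested genes moved from 0.04 to 0.48 under that scaling. Against the other members, which no scaling moves, all 3 were lower in M2. The 5 members that were not called, named here after their values were seen, were Rpl36al (log2 -0.12), Rps20 (0.01), Rpl27 (0.14), Rpl19 (0.15) and the scarce retrotransposed copy Rps27rt (0.20). Rps20, a protein of the head of the small subunit, had 313 and 343 CPM in M1 and 318 and 343 in M2. Its groups overlapped, with replicate 2 the higher in both.

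The stalk on which translation factors land is made of Rplp0, Rplp1 and Rplp2. Rplp0, its anchor, had 553 and 631 CPM in M1 and 869 and 894 in M2 (log2 0.58, SE 0.08). Rplp1 had 410 and 457 against 851 and 888 (log2 1.01, SE 0.07), and Rplp2 had 260 and 304 against 413 and 430 (log2 0.58, SE 0.08). All 3 were called higher in M2. Per kilobase of exon Rplp1 was the most abundant member in both groups, with 868 CPM per kilobase in M1 and 1742 in M2, followed over all libraries by Rps3a1, Rps15, Rps29 and Rplp0. Levels per kilobase use all annotated exons of a gene, which for members run from 374 to 6270 bases, and so understate genes with long rare exons.

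Among members with known roles outside or beside the ribosome, Rps6, the protein phosphorylated by S6 kinases, had 218 and 235 CPM in M1 and 318 and 327 in M2 (log2 0.51, SE 0.06). Rpl5 and Rpl11, which with 5S ribosomal RNA can bind the p53 regulator Mdm2, rose by 1.00 and 0.57 log2 units (SE 0.07 each). Rpl13a, which can leave the ribosome in interferon gamma-treated cells and block translation of selected messages, had 104 and 109 CPM in M1 against 178 and 189 in M2 (log2 0.78, SE 0.06). Rps27a, made as a fusion with ubiquitin, had 235 and 271 against 387 and 415 (log2 0.66, SE 0.08). All of these were called higher in M2. Rpl13a, the member of this group linked to interferon gamma, stood near the median of all members. The exons of Rpl13a share 29.4% of their bases with Gm45713 on the same strand, a gene at 0 or 1 counts per library. Those of Rpl5 share 24.3% with Fam69a on the opposite strand. The share of the reads of Rpl13a and Rpl5 that was counted is not known.

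**Figure D3:**
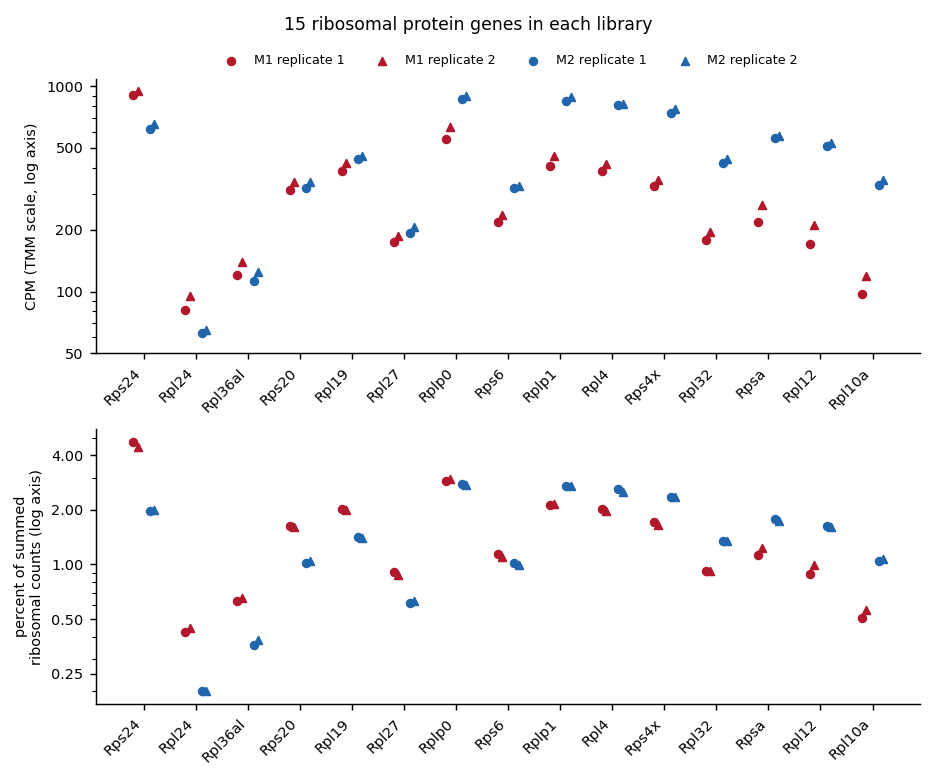
Level of 15 members in each of the 4 libraries (red, M1; blue, M2; circles, replicate 1; triangles, replicate 2), as CPM above and as percent of the summed ribosomal counts below, both on log axes. Rps24 and Rpl24 fall from M1 to M2 in both panels, Rps20 is level in CPM and lower in M2 as a share, and Rpl10a, Rpl12 and Rpsa are higher in M2 in both.

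A second fit used the summed counts of the members as the library size, so that it asks how the mix of ribosomal protein messages differed and not how much there was. Its estimate of spread drew on all 14656 tested genes and not on the members alone. The SE of Rpl24 was 0.12 in this fit, against 0.07 on the TMM scale. A member that was not called here may therefore still differ in its share. Across the 82 members of at least 5 CPM the order of levels was much alike, with a Pearson r of 0.914 between the M1 and M2 means of log2 CPM, a description across genes, against 0.997 between the M1 replicates and 0.999 between the M2 replicates. Relative to the ribosomal total 17 of 84 members were higher in M2, where 21.1% of all tested genes were called, and 16 were lower, where 59.9% were called; 51 were not called. The shares of 79 members did not overlap between the groups, against 90.2% of all tested genes. The highest relative changes were those of Rpl39l (log2 1.88), Rpl10a (0.98), Rpl12 (0.79), Rpsa (0.57) and Rpl32 (0.55). The lowest were those of Rps24 (-1.21), Rpl24 (-1.12), Rps19bp1 (-0.87), Rpl36al (-0.79) and Rps20 (-0.65). These 10 genes were also called in each fit that left out a library, 5 of them higher and 5 lower. The counts themselves moved: 5 members were higher and 5 lower without M2 replicate 1, 5 and 6 without M2 replicate 2, 26 and 21 without M1 replicate 1, and 24 and 20 without M1 replicate 2. Rps4x (0.49), Rpl19 (-0.51) and the tiny Rpl41 (-0.48), of which the last 2 were picked after their values were seen, passed with all 4 libraries and were lost when either M2 library was left out.

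As percent of the ribosomal counts, Rpl10a went from 0.508 and 0.560 in M1 to 1.05 and 1.06 in M2, and Rpl12 from 0.889 and 0.987 to 1.63 and 1.62. Rpl24 went from 0.422 and 0.445 to 0.200 and 0.199, and Rps4x from 1.71 and 1.65 to 2.35 and 2.37. Rps20 made up 1.63 and 1.61 in M1 and 1.01 and 1.05 in M2. In each of these the replicates lay close together and the groups did not overlap.

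Some ribosomal protein genes have a paralog with a like sequence, in several cases one whose product can take the place of the usual protein, and a ratio of the pair within a library needs no scaling. Rpl36al, per kilobase, stood at 143% and 142% of Rpl36a in M1 and at 65.6% and 68.1% in M2, so by this measure the paralog was the more abundant of the pair in M1 and the less abundant in M2. Which of the pair is the larger depends on the exon lengths used, and the change of the ratio between the groups does not. Rpl36a itself went from 103 and 120 CPM to 210 and 224 (log2 0.97, SE 0.08), and Rpl36al had 121 and 139 against 113 and 125. The exons of Rpl36al share 24.5% of their bases with Gm49383, a gene without a row of that name in the count table. Rpl22l1 stood at 28.7% and 28.3% of Rpl22 in M1 and at 20.1% and 20.0% in M2; both genes were called higher in M2, by 0.42 and 0.93 log2 units. Rps27l, per kilobase, was 52.2% and 56.5% of Rps27 in M1 and 44.8% and 46.0% in M2, and Rpl7l1 was 21.8% and 22.2% of Rpl7 against 16.7% and 16.7%. In these 4 pairs the paralog was lower relative to its partner in both M2 libraries.

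Rpl39l, known from the ribosomes of male germ cells, was the exception. It had 7 and 11 counts in the M1 libraries and 56 and 99 in the M2 libraries (log2 2.55, SE 0.33, adjusted p = 4.5e-06, edgeR's quasi-likelihood test), and 0.293% and 0.529% of the level of Rpl39 per kilobase in M1 against 1.23% and 1.36% in M2. It was scarce in every library, and Rpl39 remained the main gene of the pair. Its log2 ratio was 2.14 without M1 replicate 2, against 1.65 with all libraries. Rpl3l, the form of Rpl3 found in muscle, had 6 and 7 counts in M1 and 1 and 1 in M2, did not pass the filter on low counts (without that filter it was called lower in M2) and had a scaled ratio of 9.36 (M1 over M2, exact 95% interval 2.12 to 85.5, counting error only). Rpl10l had no count in any library. For each ratio of a pair, the exact two-sided permutation test gave p = 0.333, the smallest that 4 libraries allow.

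**Figure D4:**
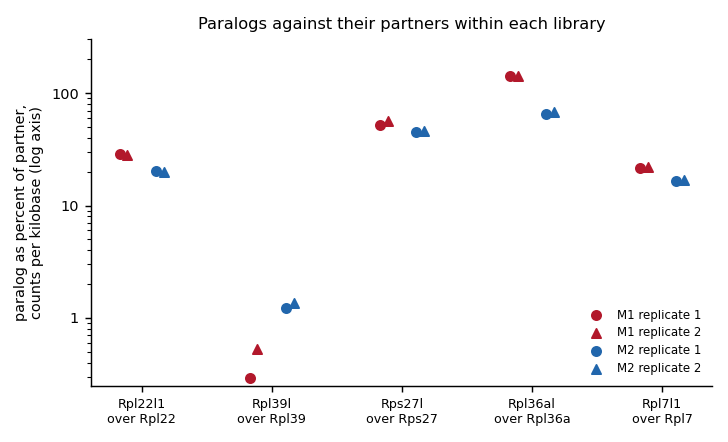
Level of 5 paralogs as percent of their partner, counts per kilobase of exon on a log axis, in each library (red, M1; blue, M2; circles, replicate 1; triangles, replicate 2). Rpl36al falls from above to below 100% of Rpl36a, and Rpl39l lies between 0.293% and 1.36% of Rpl39 and is higher in M2.

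Rack1 and Fau, ribosomal protein genes with other symbols, were not alike. Rack1, a scaffold protein on the head of the small subunit, had 338 and 388 CPM in M1 and 664 and 680 in M2 (log2 0.89, SE 0.08) and was called higher. Fau, which fuses a ubiquitin-like protein to a small-subunit protein, had 372 and 401 CPM against 380 and 408 (log2 0.03, SE 0.07) and was not called, its groups overlapping.

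Other genes of translation were read from lists of genes grouped by their known roles. The closest to the ribosomal protein genes were the elongation factors and other known TOP messages: 12 of 14 were higher in M2 and 2 lower, with a median of 0.65 log2 units, beside 39.7% and 37.5% of all tested genes and a median of 0.04. Eef1d, a subunit of the elongation factor 1 exchange complex, had 51.6 and 60.9 CPM in M1 and 107 and 104 in M2 (log2 0.91), and Eif4b, a cofactor of the initiation helicase, rose by 0.84. Hnrnpa1, an RNA-binding protein, was called lower (log2 -0.53, and -0.087 and not called under total-count scaling), as was the poly(A)-binding protein Pabpc1 (-0.17), whose sign turned under upper-quartile (0.02) and total-count scaling (0.28). The call of Pabpc1 was also lost without a filter on low counts (-0.11) and with a filter at 5 CPM (-0.12). Its value was -0.15 without M2 replicate 1 and -0.15 without M2 replicate 2. Of 36 ribosome assembly factors found, 25 were higher and 5 lower, with a median of 0.49, beside the same shares of all genes. Wdr12, which works with Pes1 and Bop1 on the large subunit, rose by 1.82 log2 units, and the chaperone Grwd1 by 1.59. The pair that acts on the finished large subunit went down: Eif6, which keeps the subunits apart, by 1.02, and Sbds, which helps to release it, by 1.17 (log2 -1.02 and -1.17).

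In the remaining lists calls in each direction are to be read beside the same 39.7% and 37.5% of all tested genes, and their balance moved with the scaling. Of 12 genes of RNA polymerase I, which makes ribosomal RNA, 3 were higher, 4 lower and 5 not called, with a median of -0.16. Scaled by upper quartiles, 5 were higher and 2 lower (median 0.02), and scaled to total counts 9 were higher and 0 lower (median 0.29). The core subunit Polr1b rose by 1.34 log2 units and Polr1e, at 4.60 and 4.67 CPM in M1 and 6.70 and 6.96 in M2, by 0.56, whereas Tcof1 (-0.46) and Taf1d (-0.38) were lower, a call that both lost under total-count scaling (-0.016 and 0.071). Of 19 initiation factors, 6 were higher and 6 lower, with a median of 0.03. Upper-quartile scaling gave 13 and 3 (median 0.21) and total-count scaling 17 and 2 (median 0.48). The helicase Eif4a1 rose by 0.67 and Eif3i by 0.56, and the start codon factors Eif1 (-1.10) and Eif5 (-0.79) fell. Of 11 genes of the mTORC1 pathway 3 were higher and 6 lower, with a median of -0.34 (5 and 3 with a median of 0.10 under total-count scaling). Larp1, the TOP-binding protein, had 348 and 336 CPM in M1 and 172 and 165 in M2 (log2 -1.02, SE 0.06), and Mtor fell by 0.68, while the translation inhibitor Eif4ebp2 (0.59) and the mTORC1 brake Tsc1 (0.50) rose. The related inhibitor Eif4ebp1 went the other way, from 73.0 and 77.1 CPM in M1 to 49.0 and 50.3 in M2 (log2 -0.60). Of 8 genes that respond to stalled ribosomes 1 was higher and 5 lower, with a median of -0.41 (3 and 2 with a median of 0.04 under total-count scaling). The higher gene was Map3k20, the kinase that senses collided ribosomes (1.29), and Gtpbp2 (-2.24) and Ascc3 (-1.69), both rescue factors, had the lowest values.

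The start of the message is where the TOP tract lies, and the bases around the annotated start are shown for genes at either end of the order of changes. They come from the RefSeq promoter table for GRCm38.p6, each with 12 bases before the start and 18 from it on, in the direction of the gene. Capitals mark any stretch of a C followed by at least 4 bases that are each C or T beginning within 10 bases of the start. For Rps24 and Rpl10a the table lists 2 starts, and the upstream start is shown; the windows of the downstream starts hold no tract.
Rps24, chr14:24490666-24490695, plus strand: gcgctggggtCCTTCCTTgcgcgttgatat
Rpl24, chr16:55966263-55966292, plus strand: aagctgttgctaggaaacagactgggcgct
Rpl10a, chr17:28328459-28328488, plus strand: gcgCCCCCCCagcggccgcaaactgcagcg
Rpl12, chr2:32961700-32961729, plus strand: ggagcaggatccgtCTTTTCggCTTTCggc
Rpsa, chr9:120127754-120127783, plus strand: ggttatttaaggacgtcatttccggccgcc
Rps4x, chrX:102189374-102189403, minus strand: aggctgggcggagcaacccaggctccagcg
A tract stands near the start shown of Rps24, which fell, and near those of Rpl10a and Rpl12, which rose most among the abundant members, and none stands in the windows of Rpl24, Rpsa and Rps4x. None of the tracts shown begins at the annotated start itself. That of Rpl10a ends before the start, so it is not part of a message that begins there. The table held starts for 66 of the 86 members. Searched on the strand of the gene only, a tract that begins at the annotated start itself was present in 14 of these (21.2%) and in 813 of all 27025 genes of the table (3.01%). A tract beginning within 10 bases of a start was present in 40 members (60.6%) and in 9297 genes (34.4%). Tested members with a tract near the start had a median log2 change of 0.60 and those without a median of 0.65. An annotated start may not be the start used in these cells, so a missing tract says only that these letters are not in this window.

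The replicates were not equal in ribosomal protein RNA. In M1, replicate 2 exceeded replicate 1 for all 82 members of at least 5 CPM, with a median difference of 0.15 log2 units. In M2, replicate 2 exceeded replicate 1 for 80 of the 82, with a median difference of 0.06. Over all 9630 genes of that level the medians were -0.02 and close to 0 (-0.00052). The difference between the replicates is smaller than that between the groups, whose median was 0.57 without M1 replicate 1 and 0.77 without M1 replicate 2. Exon length and fold change had a Spearman rho of 0.09 across the 82 members, a description across genes. Members share exons with other annotated genes in 39 cases, by at least 10% of their exon bases in 12. Among them are Rpl35 (66.2%, with Wdr38) and Rpl23a (59.7%, with Tlcd1), whose partners lie on the opposite strand. Reads in such stretches cannot be told apart without strand. Where the partner lies on the same strand, as Gm28037 does for Rpl24, strand would not separate them either. Rows named as ribosomal protein pseudogenes, 287 in all, took between 0.00571% and 0.0124% of each library. Reads that match a gene and its processed copies equally may have been left out by the counting, so members with near-identical copies are uncertain in level.

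The size of the change depended on how libraries were scaled, and its main direction did not under the 4 scalings of the whole library. The median of the members was 0.66 log2 units with TMM, 0.64 with RLE, 0.85 with upper-quartile and 1.11 with total-count scaling, while the median of all tested genes was 0.04, 0.01, 0.22 and 0.48. Members higher and lower numbered 75 and 3 with RLE, 79 and 2 with upper-quartile and 82 and 0 with total-count scaling. Over all tested genes, total-count scaling called 8570 higher and 3343 lower, against 5817 and 5495 with TMM.

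**Figure D5:**
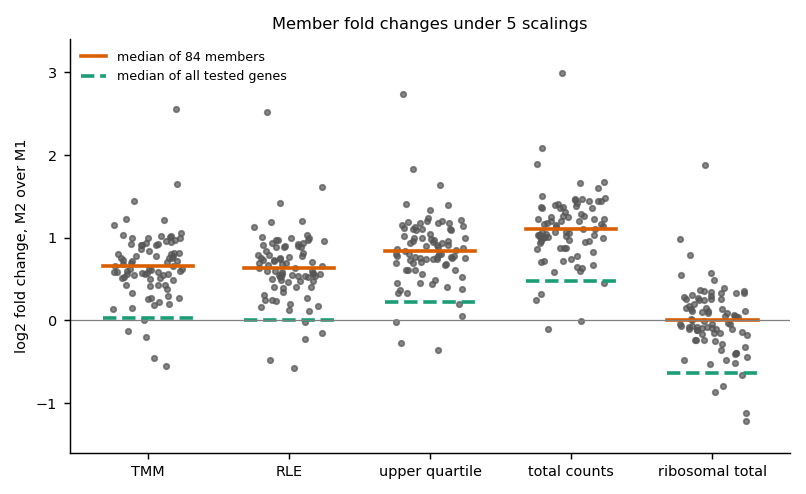
Log2 fold change (M2 over M1) of each of the 84 members under 5 scalings, with the median of the members (solid line) and of all tested genes (dashed line). The median of the members lies above that of all genes in each of the 5. A change of scaling moves all genes nearly alike, so this gap could hardly differ between them. The ribosomal total sets the median of the members at 0.00.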

How the data were processed

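Poly(A) RNA of 4 libraries (M1, n = 2; M2, n = 2) was sequenced as paired reads after oligo(dT) selection with a kit that does not mark strand, per the labels' protocols. The authors deposited one table of whole-number read counts per Ensembl gene, not normalized. The submitters' processing notes name the build GRCm38 and the tools STAR 2.5.2b, Subread 1.5.2, featureCounts, Trimmomatic 0.36, DESeq and DESeq2; their roles, their settings and how reads with several matches were treated were not given in the sources used here. A deposited comparison table was not used.

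Symbols and exon lengths came from GENCODE vM21, which named 49056 of the 49315 rows. The whole table was fitted with edgeR 4.0.16 in R 4.3.3: filterByExpr (minimum count 10, minimum total 15), TMM factors, robust quasi-likelihood F test, two-sided, Benjamini-Hochberg adjustment over 14656 genes. Standard errors (SE) are the absolute log2 fold change over the square root of F. A second fit took the summed counts of the members as library size. Alternatives used DESeq2 1.42.0, limma-voom 3.58.1, other scalings and filters, and each library left out. The fit was tested on simulated data with known changes. Few genes changed in the simulated data, whereas 77.2% of tested genes were called here, so the simulation cannot test the scaling. Replicate numbers follow accession order and pair nothing. Intervals cover counting error only.

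Members, lists and tests were chosen with earlier results of these data known. Genes named were the 8 largest called rises and falls of at least 5 CPM (only 3 fell), the 5 most abundant per kilobase, paralogs with their partners, 10 members with known roles (Rplp0, Rplp1, Rplp2, Rpsa, Rps6, Rpl5, Rpl11, Rpl13a, Rps27a, Rps19bp1), Fau and Rack1, and up to 2 genes each way of each list. Rps20, Rpl27, Rpl19, Rpl41 and Eif4ebp1 were added after their values were seen. A gene that the rule named is not reported here.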

Additional observations from a re-analysis of the deposited data

How the results depend on the processing

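Of the values with all libraries on the TMM scale, the median of the members moved by more than the replicate spread to 0.85 with upper-quartile scaling and to 1.11 with total counts, where 0 members were called lower. With the ribosomal total as library size it was 0.0010, with 17 members higher and 16 lower. Without the 50 most abundant other genes the shares differed by 2.31 percentage points, against 2.01. Leaving out each library gave 74 to 78 members higher, 2 to 4 lower and a median of 0.57 to 0.77. Relative to the ribosomal total it gave 5 to 26 higher and 5 to 21 lower, and log2 ratios of 1.29 to 2.14 for Rpl39l over Rpl39 and -4.56 to -3.94 for Rpl3l over Rpl3.

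Signs turned under total-count scaling for Rpl36al (0.32), Rps19bp1 (0.24), Pabpc1 (0.28) and Taf1d (0.071), under upper-quartile scaling for Pabpc1 (0.019) and Rpl36al (0.059), and for Rps20 under RLE and DESeq2 (-0.015 each). Scaled to the ribosomal total they turned for Fau (-0.64), Rpl7 (-0.042), Rpl7l1 (-0.44), Rpl10 (-0.047), Rpl11 (-0.10), Rpl19 (-0.51), Rpl22l1 (-0.25), Rpl27 (-0.52), Rpl41 (-0.48), Rplp0 (-0.087), Rplp2 (-0.080), Rps6 (-0.16), Rps20 (-0.65), Rps27 (-0.10), Rps27a (-0.00045), Rps27l (-0.36), Rps27rt (-0.47), Rps29 (-0.32), Eif3i (-0.11), Eif4ebp2 (-0.080), Polr1e (-0.11) and Tsc1 (-0.17). Relative to the ribosomal total, Rps27a turned to 0.0021 with the median ratio over members and with DESeq2. Leaving out a library gave -0.029 to 0.093 for Fau and -0.056 to 0.080 for Rps20, and, relative to that total, -0.028 to 0.028 for Rps27a and -0.095 to 0.012 for Rpl7. Of 63 named genes, not counting Eif4ebp1, RLE kept direction and side of the threshold for 61, DESeq2 for 60, limma-voom for 61 and the non-robust fit for all 63. No paired analysis was possible because replicate numbers only follow accession order. With 2 libraries a group the spread rests on few values, and Rpl39l and Rpl3l on few counts.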
